A study of Mus musculus with 2 samples.

Results

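The 9 genes described here are the globins and a pair of red cell genes whose footprints were counted on the polysomes of the neonatal mouse brain. They were matched by symbol, and all 9 were found among the 45578 genes of the deposited table, where they held 21 of 109463 annotated transcripts. The set comprises the adult alpha globins Hba-a1 and Hba-a2, the adult beta globins Hbb-bs and Hbb-bt, the embryonic globins Hba-x, Hbb-y and Hbb-bh1, the heme enzyme gene Alas2 and the membrane protein gene Slc4a1. Brains were taken at postnatal day 5 from 2 control mice of the Taiwanese line, which carried 1 disrupted Smn allele and a human SMN2 transgene (Smn+/-; SMN2tg/0) on the FVB background. Polysomes were isolated on a sucrose gradient and digested with RNase I, and the fragments that ribosomes had shielded were sequenced. The mice were biological replicates of 1 group, so the comparisons are among genes and between the 2 libraries, and no treatment or genotype was compared.

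Hemoglobin is a tetramer of a pair of alpha-type and a pair of beta-type chains, each holding a heme. In mice the beta-type genes lie in a cluster on chromosome 7 and the alpha-type genes in a cluster on chromosome 11. Primitive red cells of the yolk sac use the embryonic genes, and definitive red cells made later in the liver and bone marrow use the adult genes. Young red cells that have lost their nucleus, called reticulocytes, keep ribosomes and globin mRNA for a time and circulate in blood. The labels describe snap-freezing of the brain after decapitation and mention no flushing of the vessels.

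Promoter sequences of 7 of the 9 genes were matched by symbol in a RefSeq table of build GRCm38.p6, and 4 are shown because they represent the adult and embryonic genes of both clusters that the counts set apart. Each is the 120 bases before the RefSeq start of the gene, written 5′ to 3′ on the strand of the gene. Capitals mark the letters of the CACCC box, the letters CCAAT of the CAAT box and the letters ATATAA of the TATA-like box, which are long known in globin genes and were searched on both strands.
Hbb-bs (adult beta), chr7:103827929-103828048, minus strand: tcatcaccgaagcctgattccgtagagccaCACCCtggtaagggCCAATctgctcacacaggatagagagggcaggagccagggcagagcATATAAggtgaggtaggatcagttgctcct
Hba-a2 (adult alpha), chr11:32296372-32296491, plus strand: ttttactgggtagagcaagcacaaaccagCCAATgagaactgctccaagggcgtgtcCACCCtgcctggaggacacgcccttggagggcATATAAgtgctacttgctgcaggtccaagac
Hbb-y (embryonic beta-like), chr7:103853208-103853327, minus strand: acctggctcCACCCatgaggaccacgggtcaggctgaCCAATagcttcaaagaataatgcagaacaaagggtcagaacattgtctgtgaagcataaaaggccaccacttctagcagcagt
Hba-x (embryonic alpha-like), chr11:32276480-32276599, plus strand: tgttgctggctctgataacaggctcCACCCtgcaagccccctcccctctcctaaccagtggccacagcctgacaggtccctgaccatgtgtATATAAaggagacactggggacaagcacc
The adult genes Hbb-bs and Hba-a2 held all 3 motifs, with the first base of ATATAA at -30 in Hbb-bs and at -31 in Hba-a2. Hbb-y lacked the exact letters ATATAA and Hba-x the exact letters CCAAT in this window. Similar letters, such as ataaaa in the Hbb-y sequence, were not searched or marked, so a lack of these boxes is not shown. Among 32851 RefSeq promoter windows of the same length, 31.7% held CACCC, 21.3% held CCAAT and 4.47% held ATATAA. These matches describe the letters alone.

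The adult copies of each chain are close relatives, and this bears on the adult globin counts below. The 300-base RefSeq windows around the starts of Hba-a1 and Hba-a2 shared an unbroken run of 297 bases, which reached into the coding sequence. The first 15 coding bases were the same in both genes: atggtgctctctggg. The promoters of Hbb-bs and Hbb-bt were 74.6% identical when aligned over 120 bases. These bases lie before the transcript, and the likeness of the beta transcripts themselves was not measured. How the authors placed a fragment that matches several transcripts is not given in the sources used here, so counts of single copies are uncertain. Sums over the alpha pair and over the beta pair do not depend on which copy of the pair received a fragment. If a fragment was counted on every transcript it matches, these sums would still depend on the number of annotated transcripts.

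The deposited libraries held 1866831 footprints in replicate 1 and 5261878 in replicate 2. Levels are given as CPM, the count of a gene summed over its transcripts and scaled to 1e+06 footprints of the library. Where no footprint was found, 3 counts were taken as the upper limit, which is 1.61 CPM for replicate 1 and 0.570 CPM for replicate 2. All 8 neuronal markers on the list had footprints, and together they took 0.528% ± 0.0783 of the library (SD, n = 2).

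Adult globin mRNA was on brain polysomes at high level, and embryonic globin mRNA was at or near 0. The 4 adult genes held 4618 footprints in replicate 1 and 8867 in replicate 2. Together with the embryonic genes they took 0.247% of replicate 1 (Clopper-Pearson 95% interval 0.240 to 0.255) and 0.169% of replicate 2 (0.165 to 0.172), or 0.208% ± 0.0557 on average (SD, n = 2). Intervals cover counting error only, since PCR copies are not independent molecules. In a brain lysate, fewer red cells and less globin mRNA per red cell cannot be told apart. Which cells the globin footprints came from was not tested.

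Hba-a1 (ENSMUSG00000069919), one of the genes for the adult alpha chain, had 1182 footprints in replicate 1 and 2419 in replicate 2, or 633 and 460 CPM (mean 546 ± 123, SD, n = 2). Hba-a2 (ENSMUSG00000069917), the other alpha gene, had 1171 and 2165 footprints, or 627 and 411 CPM (519 ± 153). The alpha genes lay within each other's range. Hba-a1 took 51.5% ± 1.79 of the adult alpha footprints.

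Hbb-bs (ENSMUSG00000052305), an adult beta gene, had 1595 and 3042 footprints in replicates 1 and 2, or 854 and 578 CPM (716 ± 195, SD, n = 2). Hbb-bt (ENSMUSG00000073940), its neighbour in the cluster, had 670 and 1241 footprints, or 359 and 236 CPM (297 ± 87.0). Hbb-bs was higher than Hbb-bt in both libraries, without overlap, and took 70.7% ± 0.428 of the adult beta footprints. These sums run over 3 annotated transcripts of Hbb-bs and 1 of Hbb-bt. On their full-length coding transcripts the counts were near each other, with 679 for Hbb-bs-001 and 670 for Hbb-bt-001 in replicate 1 and 1257 and 1241 in replicate 2.

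**Figure D1:**
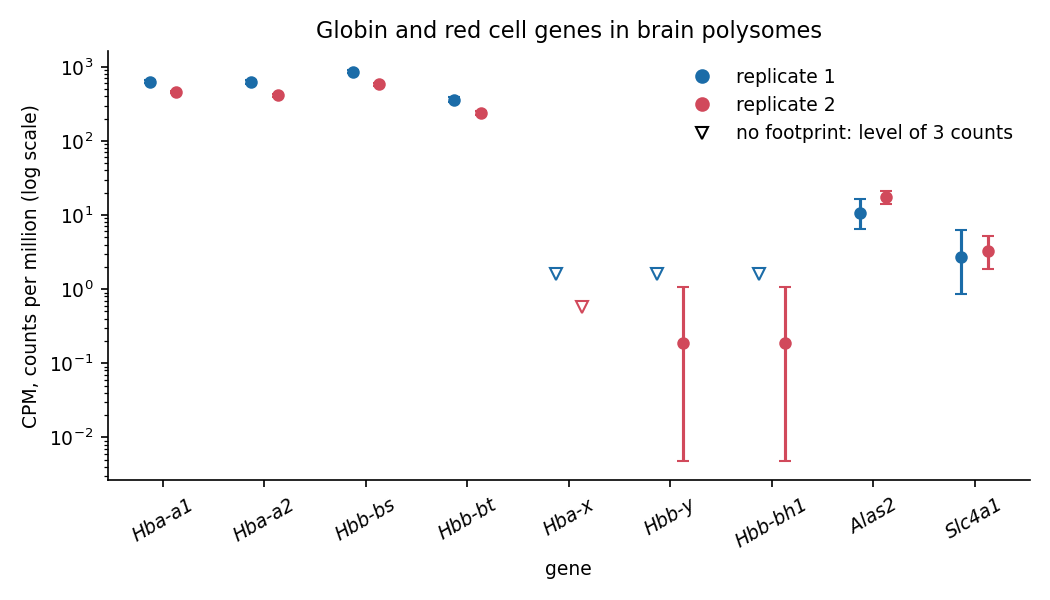
Level of each gene in CPM (log scale) in replicate 1 (blue) and replicate 2 (red), with Clopper-Pearson 95% intervals; open triangles stand at the level of 3 counts where no footprint was found. The 4 adult globin genes lie between 236 and 854 CPM, Alas2 and Slc4a1 lie below 20 CPM, and the embryonic globins have 0 or 1 footprint.

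Hba-x (ENSMUSG00000055609), the embryonic alpha-like zeta globin, had 0 footprints in both libraries. Hbb-y (ENSMUSG00000052187), the embryonic epsilon-like globin, had 0 in replicate 1 and 1 in replicate 2, and Hbb-bh1 (ENSMUSG00000052217), another embryonic beta-like globin, had the same counts. The 3 genes therefore stood at or below the level that a count of 0 allows.

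Embryonic genes took 0 of 4618 globin footprints in replicate 1, which allows a share of up to 0.0650%. They took 2 of 8869 in replicate 2, a share of 0.0226% (95% interval 0.00273 to 0.0814). Adult footprints were at least 1539-fold higher than embryonic ones in replicate 1, taking 3 counts over the 3 embryonic genes as the limit. The upper bound of the two-sided 95% interval, a more cautious limit, gives 1251-fold there. In replicate 2 the ratio was 4433.5 (95% interval 1227 to 36614.5). With 2 embryonic footprints in all, a two-sided Fisher's exact test between the libraries cannot give a p below 0.117, so its p of 0.550 says nothing on whether the embryonic share differed. Nearly all globin footprints were thus on adult genes in both libraries, within the limit set by these depths.

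Alpha and beta chains were represented at nearly equal levels when all transcripts were summed. Alpha genes had 2353 footprints against 2265 of the beta genes in replicate 1, and 4584 against 4283 in replicate 2. These sums run over 2 coding and 2 retained-intron transcripts of the alpha genes, and over 3 and 1 of the beta genes. Whether the near-equality follows the number of annotated transcripts was not tested. The alpha share of adult globin footprints was 51.0% in replicate 1 (95% interval 49.5 to 52.4) and 51.7% in replicate 2 (50.7 to 52.7), with a mean of 51.3% ± 0.526 (SD, n = 2). An equal split lay inside the interval of replicate 1 and just outside that of replicate 2. A two-sided Fisher's exact test found no difference between the libraries beyond counting error (p = 0.414, adjusted over the 2 share tests 0.550).

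The alpha reading frame is a little shorter, with 143 codons against 148, stop codon included. The ratio of alpha to beta footprints was 1.04 and 1.07 in replicates 1 and 2, and per codon it was 1.08 and 1.11 (mean 1.09 ± 0.0230, SD, n = 2). With 2 samples a paired exact permutation test of alpha against beta cannot give a two-sided p below 0.5, so none was run. The order of the chains depended on which transcripts were counted. On transcripts annotated as protein coding alone, of which the beta genes have 3 and the alpha genes 2, the alpha share was 43.3% and 43.9%, so beta was the higher chain. On the highest transcript of each gene it was 51.0% and 51.5%.

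**Figure D2:**
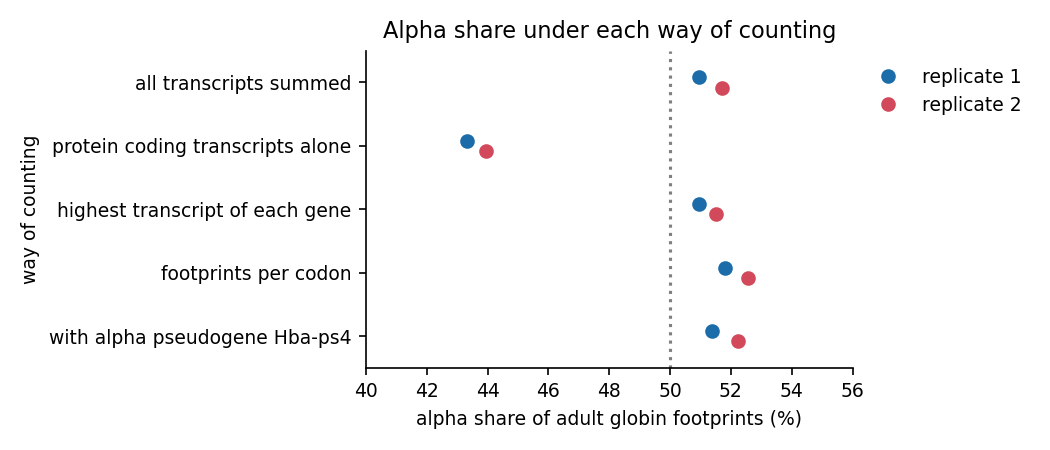
Alpha share of adult globin footprints (x axis, percent) in replicate 1 (blue) and replicate 2 (red) under 5 ways of counting; the dotted line marks equal shares. The share stays between 51.0% and 52.6% except on protein coding transcripts alone, where it is 43.3% and 43.9%.

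The footprints of the adult genes were spread over all of their 8 annotated transcripts. Hba-a1-001, the coding transcript of that gene, had 702 and 1393 footprints in replicates 1 and 2, and its retained-intron transcript Hba-a1-002 had 480 and 1026. Hba-a2-001 had 700 and 1261, and Hba-a2-002, also a retained-intron transcript, had 471 and 904. Retained-intron transcripts thus took 40.4% and 42.1% of the alpha footprints, 19.1% and 21.0% of the beta footprints, and 9.09% and 9.64% of the whole libraries. They share exons with the coding transcripts, and whether any of these fragments lay in an intron was not tested.

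Per kilobase of transcript, the 8 adult globin transcripts lay between 422 and 677 CPM in replicate 1 and between 307 and 433 CPM in replicate 2. The lowest was Hbb-bs-003 in replicate 1 and Hbb-bs-001 in replicate 2, and the highest was Hba-a2-001 in both. All 8 had a higher footprint density than 99.9% of the 43162 transcripts of at least 200 nucleotides whose counts averaged 10 or more. Hba-ps4, an unprocessed alpha globin pseudogene named after its values were seen, had 42 and 100 footprints (20.8 ± 2.47 CPM, SD, n = 2). Adding it to the alpha genes moved the alpha share to 51.8%.

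**Figure D3:**
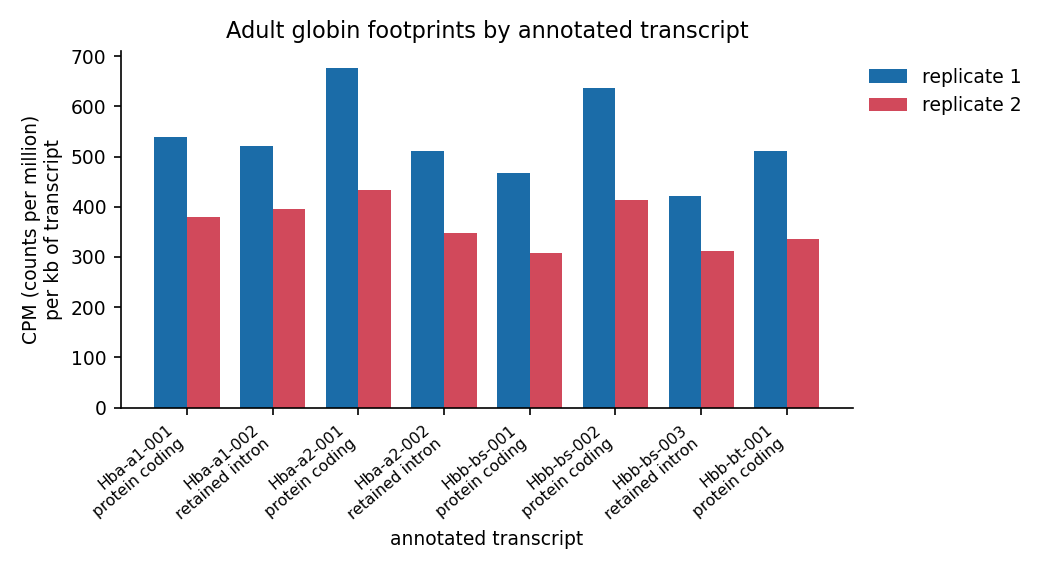
CPM per kilobase of transcript (y axis) on the 8 annotated transcripts of the adult globin genes in replicate 1 (blue) and replicate 2 (red). Retained-intron transcripts reach densities like those of the coding ones, and each transcript is lower in replicate 2.

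Alas2 (ENSMUSG00000025270) encodes the red cell form of 5-aminolevulinate synthase, which starts heme synthesis, and its mRNA carries an iron-responsive element. It had 20 footprints in replicate 1 and 91 in replicate 2, or 10.7 CPM (95% interval 6.54 to 16.5) and 17.3 CPM (13.9 to 21.2). The intervals overlapped, and the mean was 14.0 ± 4.65 CPM (SD, n = 2). Adult globin footprints outnumbered those of Alas2 231-fold in replicate 1 and 97.4-fold in replicate 2.

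Slc4a1 (ENSMUSG00000006574) encodes band 3, the anion exchanger of the red cell membrane. It had 5 and 17 footprints in replicates 1 and 2, or 2.68 CPM (0.870 to 6.25) and 3.23 CPM (1.88 to 5.17). Its intervals overlapped as well, and most of its footprints lay on the full coding transcript Slc4a1-001, with 5 and 15.

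Levels of different genes were set in order per kilobase of coding sequence. Hbb-bs stood at 1613 ± 440.0 CPM per kb (SD, n = 2), Hba-a1 at 1274 ± 286, Hba-a2 at 1211 ± 356 and Hbb-bt at 670 ± 196. This order held in both libraries, but the ranges of Hbb-bs, Hba-a1 and Hba-a2 all overlapped one another. Hbb-bt lay below the other adult genes without overlap, at 808 and 531 CPM per kb against 1462 and 959 for Hba-a2. The sums run over 1 annotated transcript of Hbb-bt, 2 of Hba-a1, 2 of Hba-a2 and 3 of Hbb-bs. The place of Hbb-bt below Hbb-bs rests on the sum over transcripts, as do their ranks. Per kilobase of transcript Hbb-bt-001 was the higher, at 511 and 335 CPM against 468 and 307 for Hbb-bs-001. The alpha coding transcripts stood at 538 and 379 (Hba-a1-001) and at 677 and 433 (Hba-a2-001). Hbb-bt-001 was lower than both in each library, but its range overlapped theirs. Alas2 followed at 7.94 ± 2.64 and Slc4a1 at 1.06 ± 0.140 CPM per kb of coding sequence, again without overlap. These depths cannot place the embryonic genes below Slc4a1, since 3 counts on Hbb-y or Hbb-bh1 are 3.62 and 1.28 CPM per kb in replicates 1 and 2, above the 0.960 and 1.16 of Slc4a1. Among 13349 coding genes whose counts averaged 10 or more, Hbb-bs ranked 12 from the top and Hbb-bt 116, while Alas2 stood at percentile 22.7 and Slc4a1 at percentile 0.951.

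The adult globins took a smaller part of replicate 2 than of replicate 1. The log2 ratio of replicate 2 over replicate 1, with TMM scaling (trimmed mean of M values), was -0.59 for Hba-a1, -0.73 for Hba-a2, -0.69 for Hbb-bs and -0.73 for Hbb-bt. A two-sided exact binomial test of each gene against the ratio of library sizes gave Benjamini-Hochberg adjusted p-values of 7.51e-27, 7.79e-40, 1.73e-48 and 1.35e-22 in the same order. With a threshold of 0.05, 4 of the 6 tested genes of the set were called, all lower in replicate 2. Over all 16427 genes tested, 17.4% were called, 11.5% lower and 5.95% higher in replicate 2. Scaled to library totals, which moved the median of all genes from 0.01 to 0.13, the 4 adult globins were still called lower, at -0.46 to -0.61, while 19% of all genes were called, 7.47% lower and 11.5% higher. The test compares the libraries of 2 mice of 1 group and covers counting noise alone. How shared fragments were placed is not given, so the 4 calls may not be independent of one another. If a fragment was counted on every transcript it matches, these p-values are too small.

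Over all transcripts the log2 ratio was lower at higher footprint density, and the adult globin transcripts were among the densest. Density was computed from the same counts as the ratio, and whether it accounts for the fall of the adult globins was not tested. Among the 10% of transcripts with the highest density the median log2 ratio was -0.26, and among the 10% with the lowest it was 0.33. With the trend of the ratio over density removed, a setting chosen after the data were examined, the ratios were -0.013 for Hbb-bs, -0.054 for Hba-a2 and 0.058 for Hba-a1. Only Hbb-bt of the 4 was still called, at -0.20 (exact binomial test, adjusted p = 0.0291). Over all 16427 genes tested, 2542 were called in this setting. In edgeR's exact test the common dispersion is estimated from the difference of the same libraries. With it 0 members were called, and 3 of the 4 adult globins had an unadjusted p under 0.05. Over all 16427 genes this test called 11, and 719 had an unadjusted p under 0.05.

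Alas2 and Slc4a1 did not follow the globins in the test. The log2 ratio was 0.54 for Alas2 (adjusted p = 0.326, exact binomial test) and 0.12 for Slc4a1 (adjusted p = 1). Whether these ratios differ from those of the globins was not tested, and at 5 footprints in replicate 1 a change of Slc4a1 was hardly detectable. Hba-x, Hbb-y and Hbb-bh1 had too few counts to be tested.

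Other globin genes were far below the adult hemoglobin genes. Cygb, which encodes cytoglobin of fibroblast-like cells and some neurons, had 58 and 150 footprints (29.8 ± 1.81 CPM, SD, n = 2), and Ngb, which encodes the neuronal neuroglobin, had 10 and 30. The theta-like genes Hbq1a and Hbq1b had 7 and 13 and 10 and 24. Mb, the muscle myoglobin gene, had 0 and 2, and Hbb-bh2 and Hbb-bh0 had 0 in both libraries. Per kilobase of coding sequence Cygb stood at 52.0 ± 3.16 CPM, Ngb at 11.8 ± 0.521, Hbq1b at 11.6 ± 1.31 and Hbq1a at 7.10 ± 2.06. Of the 4 tested genes of this list 0 were called by the exact binomial test or by edgeR's, and 0 had an unadjusted p under 0.05. Over all 16427 genes tested, the binomial test called 17.4%, and 4547 had an unadjusted binomial p under 0.05. Only 11 of the 16427 were called by edgeR's test, so its 0 calls in a list this short are not informative.

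Genes of heme synthesis and iron import were all present, as in most cells, which need heme for their own enzymes. All 16 on the list had footprints and were tested, 2 were called higher and 0 lower in replicate 2, beside 5.95% called higher and 11.5% lower over all genes, and the median log2 ratio was 0.08 against 0.01 over all genes tested. The most abundant were Alad at 108 ± 0.465 CPM (SD, n = 2), Alas1 at 95.5 ± 3.95, Tfrc, the transferrin receptor gene, at 76.8 ± 16.9 and Urod at 67.8 ± 4.94. Alas1 encodes the general form of the enzyme that Alas2 encodes for red cells. Per kilobase of coding sequence Alas1 stood at 49.5 ± 2.05 CPM against 7.94 ± 2.64 for Alas2, without overlap of the libraries. The called genes were Uros, a heme synthesis enzyme with 23 and 151 footprints and a log2 ratio of 1.06, and Slc25a38, a mitochondrial glycine carrier with 42 and 207 and a ratio of 0.67. Tfrc was called too with library totals, at 0.45.

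Red cell membrane and skeleton genes covered a wide range of levels. Add2, Epb41, Sptb and Ank1, whose skeletal proteins are also made in neurons, were the most abundant at 170 ± 35.2, 87.7 ± 31.6, 73.1 ± 7.97 and 27.3 ± 6.02 CPM (SD, n = 2). Several genes largely restricted to red cells were near 0: the Rh-associated glycoprotein gene (Rhag) had 0 and 2 footprints, and protein 4.2 (Epb42) had 1 and 1. Kel and Icam4 had 0 in both. Of 15 genes 13 had a footprint, 7 were tested and 2 were called, Epb41 higher (log2 ratio 0.62) and Add2 lower (-0.55) in replicate 2, beside 17.4% called over all genes. The median of the tested genes was -0.25.

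Other erythroid proteins also ranged from 0 to high levels. Car1, Hemgn, Trim58, Tspo2 and Alox15 had 0 footprints in both libraries, which allows up to 1.61 and 0.570 CPM each. Prdx2, a peroxiredoxin that many cells share with red cells, stood at 666 ± 28.6 CPM (SD, n = 2), Bnip3l at 108 ± 13.6, Xpo7 at 75.9 ± 14.9 and Bpgm at 75.6 ± 1.64. Fam46c at 14.4 ± 0.634 CPM and Epor, the erythropoietin receptor gene, at 2.86 ± 0.256 lay between. Of the 6 tested genes 0 were called by the exact binomial test or by edgeR's, and 0 had an unadjusted p under 0.05. Over all genes 17.4% were called by the exact binomial test and 11 of 16427 by edgeR's. The median log2 ratio of the tested genes of the list was 0.01. With library totals Xpo7 was called higher, at 0.40.

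Of 9 transcription factors that drive the red cell program in nucleated precursors, 4 were at or near 0 and 5 had enough counts to be tested. Gata1 and Gfi1b had 0 footprints in both libraries, Klf1 had 0 and 1, and Nfe2 had 0 and 2. Tal1 had 19 and 43, Zfpm1 27 and 54, Lmo2 39 and 117 and Myb 7 and 23, and all of these are also used by other cell types. Bcl11a, which silences embryonic and fetal globin genes in red cells and is also a gene of cortical neurons, was the most abundant at 157 ± 14.4 CPM (SD, n = 2), with 275 and 882 footprints. Of the 5 tested genes 0 were called by the exact binomial test or by edgeR's, and 0 had an unadjusted p under 0.05. Over all genes 17.4% were called by the exact binomial test and 11 of 16427 by edgeR's. The median log2 ratio of the tested factors was -0.04 with TMM and 0.09 with library totals.

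Genes for the clearance of hemoglobin and heme differed in level by role. The plasma scavengers haptoglobin (Hp) and hemopexin (Hpx) had 0 and 1 and 0 and 0 footprints, and Cd163, the macrophage receptor for haptoglobin complexes, had 5 and 11. Lrp1, which takes up hemopexin complexes among many other ligands, had 880 and 2279 and was called lower in replicate 2 at a log2 ratio of -0.25, a call lost with library totals at -0.12. Heme oxygenases were present, with 48 and 119 footprints on the inducible Hmox1 and 135 and 490 on the constitutive Hmox2. The biliverdin reductases Blvra and Blvrb had 38 and 167 and 41 and 116. Lrp1 was the 1 gene called among the 5 tested, beside 17.4% over all genes. With library totals Hmox2 was called in its place, higher in replicate 2 at 0.36. The median was -0.12 with TMM and 0.0053 with library totals.

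Footprints on markers of white cells and platelets were few beside those of the globins, and which cells they came from was not tested. Of 16 markers of white cells and platelets 11 had a footprint, and together they held 55 footprints in replicate 1 and 204 in replicate 2. The neutrophil genes Camp, Ltf, Lcn2 and Elane were at 0, and S100a8 and S100a9 had 1 and 0 and 2 and 5. Pf4, Itga2b, Ptprc and Mpo were the most abundant at 14.2 ± 1.93, 6.54 ± 0.158, 6.13 ± 2.61 and 3.43 ± 1.06 CPM (SD, n = 2). Of the 4 tested 0 were called by the exact binomial test or by edgeR's, and 0 had an unadjusted p under 0.05. Over all genes 17.4% were called by the exact binomial test and 11 of 16427 by edgeR's. The median log2 ratio of the tested markers was 0.30, and it was as high as 0.41 with library totals.

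Liver genes for plasma proteins were at or near 0 apart from Ttr, which the choroid plexus makes in quantity. Alb, Afp, Apoa2, Ahsg and Fgb had 0 footprints in both libraries, Apoa1 had 1 and 6, and Serpina1a had 0 and 2. Ttr had 1087 and 1456 footprints and was called lower in replicate 2 at a log2 ratio of -1.20.

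Summed shares of short marker lists for other tissue compartments were set beside that of the globins. Such a sum depends on the genes chosen and is not the share of a whole compartment. Endothelial markers took 0.0463% and 0.0438% of replicates 1 and 2, microglial markers 0.0411% and 0.0407%, and choroid plexus markers 0.0677% and 0.0383%. The choroid plexus share rested on Ttr, and without it (left out after its values were seen) the remaining 8 markers held 177 and 557 footprints, or 0.00948% and 0.0106%. The globin share was larger than each of these list sums in both libraries, at 0.247% and 0.169%. The sum over the neuronal markers was larger still, at 0.583% and 0.472%. Among endothelial markers 1 of 12 tested genes was called (Cldn5, lower in replicate 2), and among microglial markers 3 of 12 were, P2ry12 higher and C1qa and C1qb lower, beside 17.4% over all genes. With library totals C1qa and C1qb were not called, and the endothelial genes Flt1 and Kdr were called higher. Among choroid plexus markers 1 of 8 was called, which was Ttr. Among neuronal markers 5 of 8 were called, all lower in replicate 2. Tubb3, a neuronal tubulin gene, had a log2 ratio of -0.99 and Stmn2, a gene of growing axons, one of -0.81, both further below 0 than any adult globin. Syt1 was not called with library totals. The medians were 0.11 for endothelial, -0.19 for microglial, -0.25 for choroid plexus and -0.38 for neuronal markers, against -0.66 for the alpha and -0.71 for the beta globins. Whether the globins differ from these lists was not tested.

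**Figure D4:**
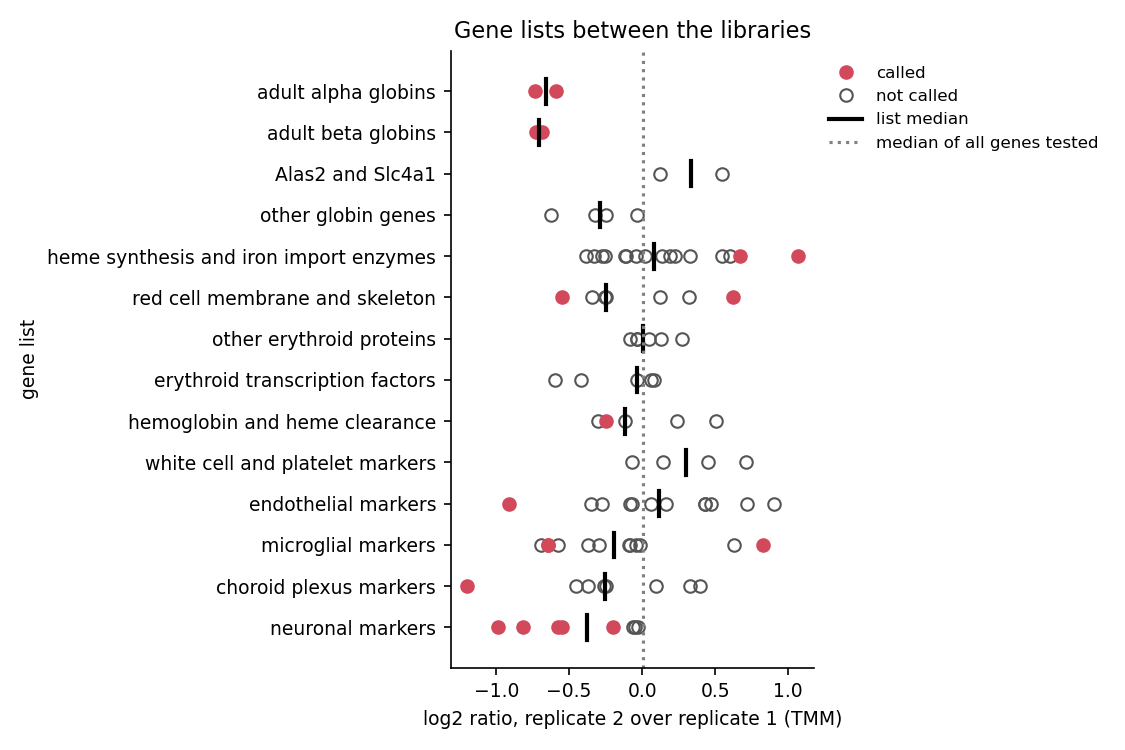
Log2 ratio of replicate 2 over replicate 1 with TMM scaling (x axis) for each tested gene of the lists; filled points were called by the exact binomial test, bars mark list medians, and the dotted line is the median of all genes tested (0.01). The 4 adult globins lie between -0.73 and -0.59, while Alas2 and Slc4a1 lie above 0 and the 5 called neuronal markers lie below it.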

How the data were processed

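Ribosome footprints of 25 to 35 nucleotides were counted in 2 control brain libraries. The authors deposited whole-number counts per transcript and the annotated lengths, which are in nucleotides, with no normalization. Trimmomatic 0.36, Bowtie2 2.2.6, SAMtools and the build GRCm38.p4 are named in the submitters' processing notes. The annotation release, the strand setting and the handling of multiply matching or duplicate fragments are not given in the sources used here. Fragments of near-identical genes can therefore be placed on either copy.

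Counts were summed per gene. The symbol was the transcript name without its number. TMM factors came from edgeR 4.0.16 over genes whose counts averaged 10 or more, and size factors for 1 alternative from DESeq2 1.42.0. The exact binomial test (SciPy 1.17.1, tested on simulated data) ran over the 16427 genes that passed this filter, with Benjamini-Hochberg adjustment. A quasi-likelihood fit across genes needs a contrast, which 1 group does not have. Log2 ratios used a prior of 0.5 CPM. Intervals are Clopper-Pearson at 95%.

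Members and gene lists were chosen with earlier results of these data known. Beside the members, the 4 most abundant genes of each list were named, every gene of lists of up to 10 genes, and called or absent genes after their values were seen. Epb41 and Epb42 were matched through their older names. Ahsp was not analysed here, and some genes of the lists are not reported here. With 2 samples of 1 group, genes of like pattern were not sought.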

Additional observations from a re-analysis of the deposited data

How the results depend on the processing

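Precision is limited by depth for Slc4a1, Alas2 and the embryonic globins. Unstated handling of shared fragments limits it for the adult globins, both for single copies and for sums over transcripts. The alpha share of 51.3% moved to 43.6% on protein coding transcripts alone and to 52.2% per codon. It ranged from 51.0% to 51.7% when 1 replicate was left out. The embryonic share ranged from 0% to 0.0226% and the globin share of the library from 0.169% to 0.247% when 1 replicate was left out, and neither moved by more than 1 SD in the other settings. The number of genes of the set called between the libraries was 4 in the settings with other scalings, filters, transcript choices or thinning, 1 with the density trend removed (chosen after the data were examined) and 0 with edgeR's exact test. All genes called numbered 2861, 2542 with the density trend removed, 1444 with the highest transcript of each gene and 11 with edgeR's exact test. With the density trend removed, the log2 ratio of Hba-a1 changed sign to 0.058 and that of Slc4a1 to -0.18. On protein coding transcripts alone that of Slc4a1 was -0.0062. With library totals, calls numbered 1 in place of 0 among other erythroid proteins, 3 in place of 1 among endothelial and 1 in place of 3 among microglial markers. The cause was not tested. No paired analysis was possible because both samples belong to 1 group and no 2 groups share replicate numbers, while alpha and beta were compared within each library.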
